A study of Arabidopsis thaliana with 8 samples.

Results

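UDP-glycosyltransferases (UGTs) are a large family of plant enzymes that move a sugar from a UDP-sugar donor onto a small molecule. Their acceptors include hormones, flavonoids, lignin precursors, defence compounds and foreign chemicals, and the added sugar usually makes the acceptor inactive, more soluble or ready for storage in the vacuole. In *Arabidopsis*, glucosylation is a known route for inactivating auxin, cytokinin, abscisic acid and brassinosteroids (BRs), so the family meets both hormones of this study. Members carry a family number, a subfamily letter and a gene number. The 47 genes described here are all those whose symbol begins with UGT and a number and that had a probe set assigned to that gene alone. Each had 1 probe set, so the family makes up 47 of the 22746 probe sets tested. A further 3 probe sets shared between a UGT gene and another gene, and 4 whose gene has a UGT name only as a synonym, were left out. The members fall into 11 numbered families. They were chosen by name, by a rule that uses no measured value, but with earlier results of these data known.

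RNA came from whole light-grown seedlings that were 10 d old by their labels. The methods put them a day younger. The 4 groups, each with 2 ATH1 arrays, were *yucca* seedlings treated with BR, mock-treated *yucca* seedlings, BR-treated wild-type (WT) seedlings and mock-treated WT seedlings. BR treatment was 2.5 h in medium with 1 μM brassinolide (BL), the most active BR, and mock treatment was the medium alone. WT was the Columbia ecotype, and *yucca*, in a Columbia background, is an activation-tagged line that overproduces auxin throughout life, so a difference between *yucca* and WT is a difference of genotype and not a short response to added auxin. The replicates of a group are described as independent biological samples. With 2 arrays per group, their number limits the precision of every value.

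Intensities are in arbitrary units. The arrays of each genotype appear to have been normalized apart, as read from equal values shared within a genotype, and the median probe set was 0.87 lower on the log2 scale in *yucca* mock arrays than in WT mock arrays as deposited. Effects of BR within a genotype are therefore given on the deposited values, and comparisons of *yucca* with WT on values quantile-normalized over all 8 arrays, where that median difference was -0.01. Differences were fitted with limma over all 8 arrays, and a gene was called when its adjusted p (Benjamini and Hochberg, over all 22746 probe sets) was under 0.10 and its log odds of differential expression, B, was above 0. Replicate arrays correlated at 0.994 to 0.998. The median SD of UGT genes between replicates, on the log2 scale, was 0.146 in *yucca* BR, 0.161 in *yucca* mock, 0.0802 in WT BR and 0.0676 in WT mock arrays. Over all probe sets it was 0.0879, 0.102, 0.0656 and 0.0699 in the same order. Genes of the lists used here and below were looked up by name among probe sets assigned to a single gene, UGT lists among members alone. Measured means found in this way, and a gene not found may still have a probe set. Of the markers of green tissue, 2 of 15 were measured, *LHCB4.1* and *PSAE-1*. They had geometric means of 8508 and 8473 over the deposited arrays and were called in no comparison. Of the root markers, 2 of 16 were measured, *EXPA7* and *EXPA18*, both expressed in root hairs. Their log2 differences between *yucca* and WT mock arrays were -0.82 and -1.53, neither was called, and the part of tissue make-up in the results below was not tested. In RNA of whole seedlings, fewer cells of a type and less RNA per cell cannot be told apart.

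Of the 47 UGT genes, 21 were called in at least 1 comparison and 26 in none. The matching share over all probe sets was not computed. In *yucca* seedlings BR lowered 6 UGT genes and raised none, beside 1.66% of all probe sets called lower and 1.76% called higher. In WT seedlings no member was called, beside 0.945% of all probe sets lower and 1.21% higher. No member was called for the difference of the BR response between genotypes. Under mock treatment 12 UGT genes were higher and 5 lower in *yucca* than in WT, beside 8.55% and 8.81% of all probe sets. Under BR 7 were higher and 5 lower, beside 8.25% and 8.6%. The members span a wide range of intensity, with geometric means over the 8 quantile-normalized arrays between 9.63 and 914 and a median of 38.7. The low end is close to the bottom of the array's range, and 20 members lay under 32, where a small intensity gives a less certain ratio.

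**Figure D1:**
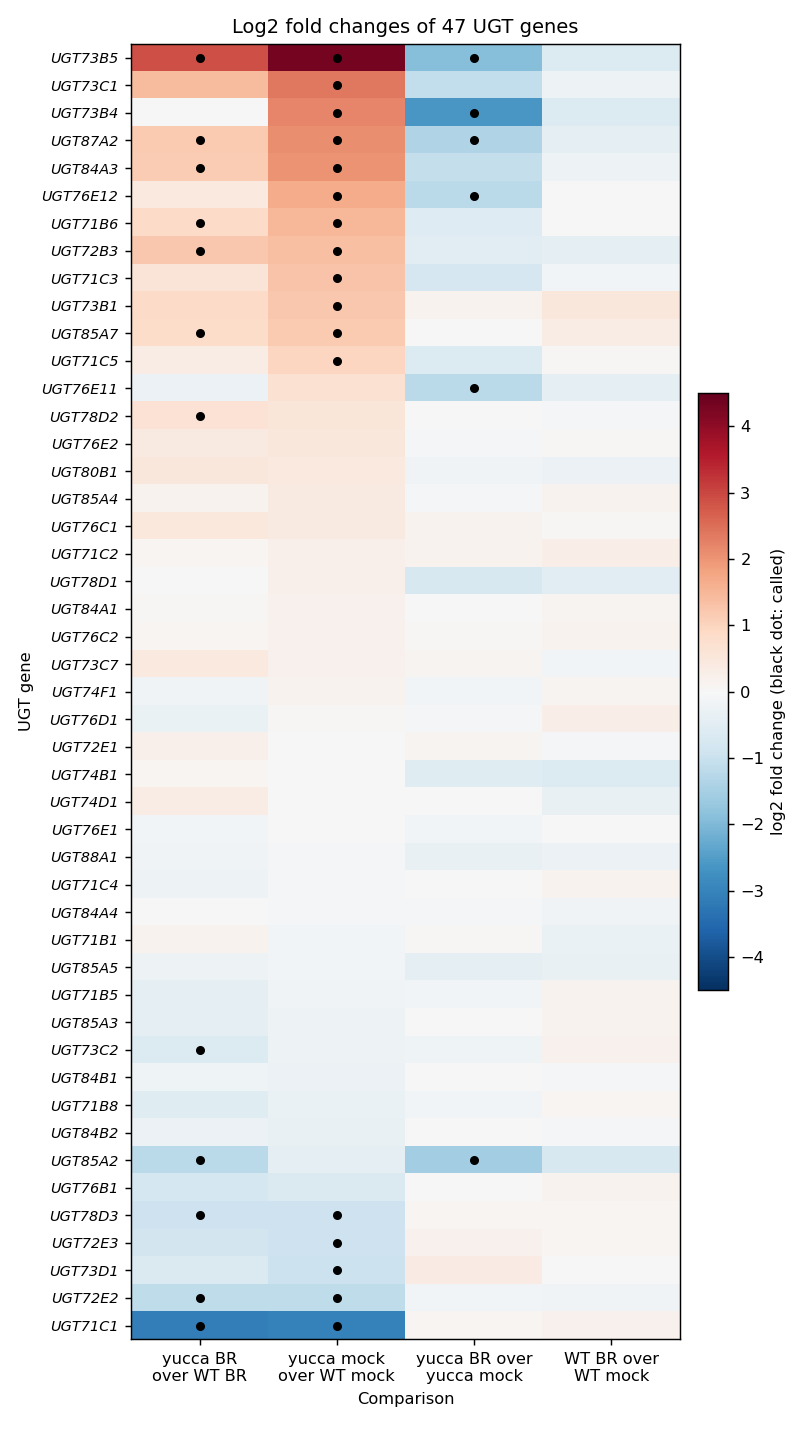
Log2 fold changes of the 47 UGT genes (rows, ordered by *yucca* mock over WT mock) in 4 comparisons (columns). Red is higher and blue lower in the first-named group, and a black dot marks a called gene; the 6 dots of the third column are all on blue cells, and the fourth column has none.

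The question asked of BR within each genotype was which UGT transcripts respond to the hormone after 2.5 h. In *yucca* seedlings, 6 of 47 members (12.8%) fell and none rose, beside 1.66% of all probe sets called lower and 1.76% called higher. The median log2 change was -0.07 over the members and 0.00 over all probe sets, and 32 of 47 members had a negative change. Of all probe sets, 50.0% had a positive change. The 6 genes were *UGT73B4*, *UGT73B5*, *UGT85A2*, *UGT87A2*, *UGT76E11* and *UGT76E12*. At an unadjusted p under 0.05, 16 members had a negative change and 1, *UGT73D1* (0.35), a positive one. The share over all probe sets at that limit was not computed. In each of the 6 called genes both *yucca* BR arrays lay below both *yucca* mock arrays. The calls were made on these same arrays, so this adds no support, and the share over all probe sets was not computed.

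*UGT73B4* (At2g15490) and its neighbour *UGT73B5* (At2g15480) are stress-induced genes whose products glucosylate flavonoids and foreign compounds in vitro. *UGT73B4* had deposited intensities of 17.4 and 10.5 in *yucca* BR arrays, against 94.5 and 72.8 in *yucca* mock arrays. This 6.14-fold fall, -2.62 on the log2 scale (standard error 0.215, limma adjusted p = 0.000212), was the steepest of the family on these values. The probe set is dim, with a geometric mean of 30.6 over the quantile-normalized arrays. With 16 added to each intensity its log2 change was -1.74, against -1.83 for *UGT73B5*. *UGT73B5* stood at 244 and 139 in *yucca* BR arrays and at 718 and 681 in *yucca* mock arrays. Its change was -1.92 on the log2 scale (standard error 0.240, limma adjusted p = 0.00174). The *yucca* BR replicates of both genes lay further apart than their mock replicates did as a ratio, with replicate 1 the higher.

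*UGT85A2* (At1g22360) belongs to the family of the cytokinin enzyme *UGT85A1*. It had 128 and 94.8 in *yucca* BR arrays, against 386 and 269 in *yucca* mock arrays, a log2 change of -1.55 (standard error 0.198, limma adjusted p = 0.00192). *UGT87A2* (At2g30140), which is known to affect flowering time, had 224 and 141 in *yucca* BR arrays, against 511 and 408 in *yucca* mock arrays. Its change was -1.36 on the log2 scale (standard error 0.207, limma adjusted p = 0.00474). This call was lost without *yucca* mock replicate 1, where the log2 fold change was -1.20 and B was -0.63, and also when the WT arrays stayed out of the fit.

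The neighbours *UGT76E11* (At3g46670) and *UGT76E12* (At3g46660) fell by nearly the same amount. *UGT76E11* had 22.5 and 17.9 in *yucca* BR arrays, against 50.2 and 43.8 in *yucca* mock arrays, a log2 change of -1.22 (standard error 0.130, limma adjusted p = 0.000742). *UGT76E12*, a dim probe set, had 9.23 and 7.66 in *yucca* BR arrays, against 21.9 and 17.0 in *yucca* mock arrays, a log2 change of -1.20 (standard error 0.162, limma adjusted p = 0.00257). All 6 genes had replicate 1 above replicate 2 in *yucca* BR and also in *yucca* mock arrays. A further 10 members had a negative change with an adjusted p under 0.10 but a B below 0. The largest of these were *UGT73C1* (-1.10, adjusted p = 0.0302), *UGT84A3* (-1.08, adjusted p = 0.0158) and *UGT71C3* (-0.75, adjusted p = 0.0150). Without *yucca* mock replicate 2 the count of members called lower was 12 in place of 6, beside 1.64% of all probe sets.

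**Figure D2:**
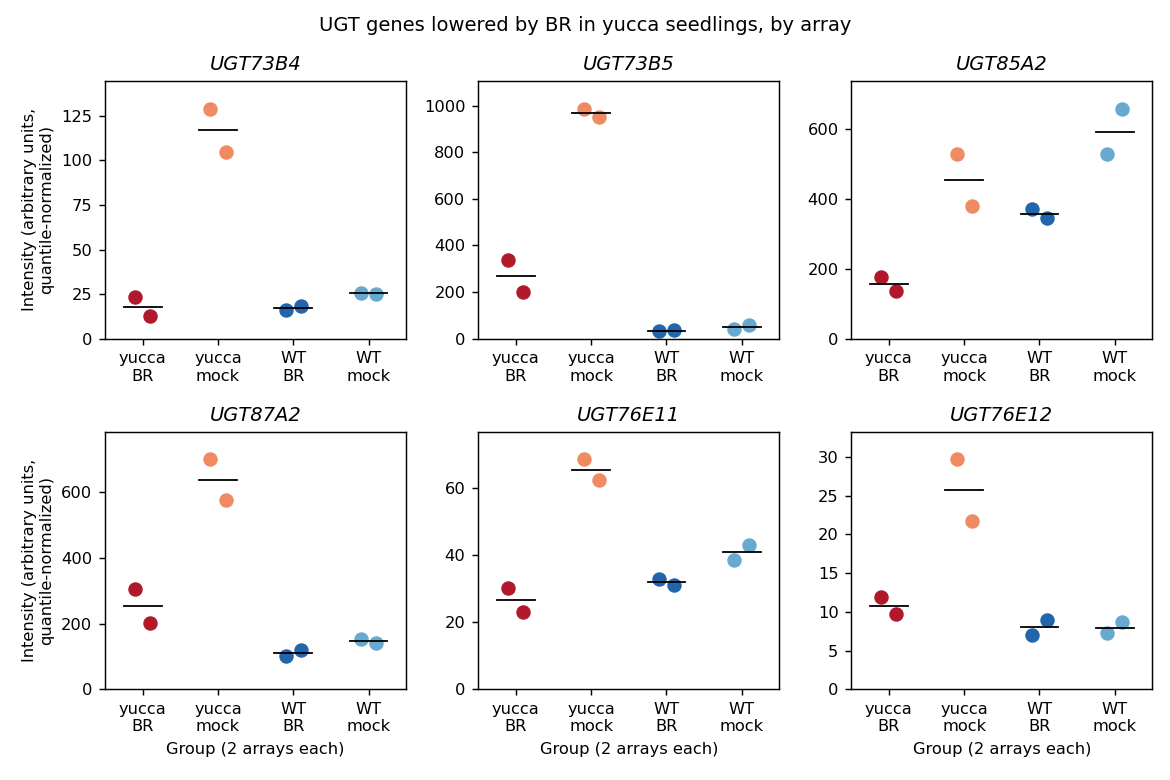
Quantile-normalized intensity (arbitrary units, linear axes from 0) of the 6 UGT genes lowered by BR in *yucca*, by group; dots are single arrays and bars the mean of 2. In every panel both *yucca* BR arrays lie below both *yucca* mock arrays, and for *UGT73B4* the *yucca* BR array at 23.1 lies within the range of the WT arrays and that at 12.9 below all 4 of them.

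In WT seedlings 0 of 47 members were called in either direction, beside 1.21% of all probe sets called higher and 0.945% called lower, so that a count of 0 lies close to the share over all probe sets. At an unadjusted p under 0.05 there were 12 members, 10 with a negative and 2 with a positive change, again with no share over all probe sets computed. The family median log2 change was -0.03, and that of all probe sets was -0.01. The smallest p belonged to *UGT74B1* (At1g24100), which glucosylates thiohydroximates in glucosinolate synthesis. It had deposited intensities of 277 and 258 in WT BR arrays, against 412 and 403 in WT mock arrays, so the groups did not overlap. Its log2 fold change was -0.61 (standard error 0.131, limma adjusted p = 0.0429), but B was -0.83, below the limit for a call. In *yucca* it had 149 and 140 in BR arrays, against 244 and 184 in mock arrays, a log2 fold change of -0.55 that was not called either (B -1.63). In a fit of the WT arrays alone, *UGT74B1*, *UGT73B4* and *UGT78D1* were called lower (6.38% of members, beside 1.31% of all probe sets).

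Of the 6 genes lowered in *yucca*, 5 had a negative change in WT, but none of them was called. Over all probe sets, 46.2% had a positive change in WT. *UGT85A2* had 508 and 486 in WT BR arrays, against 732 and 927 in WT mock arrays (log2 fold change -0.73, standard error 0.198, limma adjusted p = 0.111). *UGT73B4* had 21.0 and 22.8 in WT BR arrays, against 34.5 and 33.2 in WT mock arrays (log2 fold change -0.63, standard error 0.215, limma adjusted p = 0.238). *UGT76E12* was the exception, with 9.32 and 11.4 in WT BR arrays, against 9.49 and 11.2 in WT mock arrays. The highest positive change in WT was that of *UGT73B1* (0.51, adjusted p = 0.361), with 187 and 197 in WT BR arrays, against 115 and 158 in WT mock arrays.

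**Figure D3:**
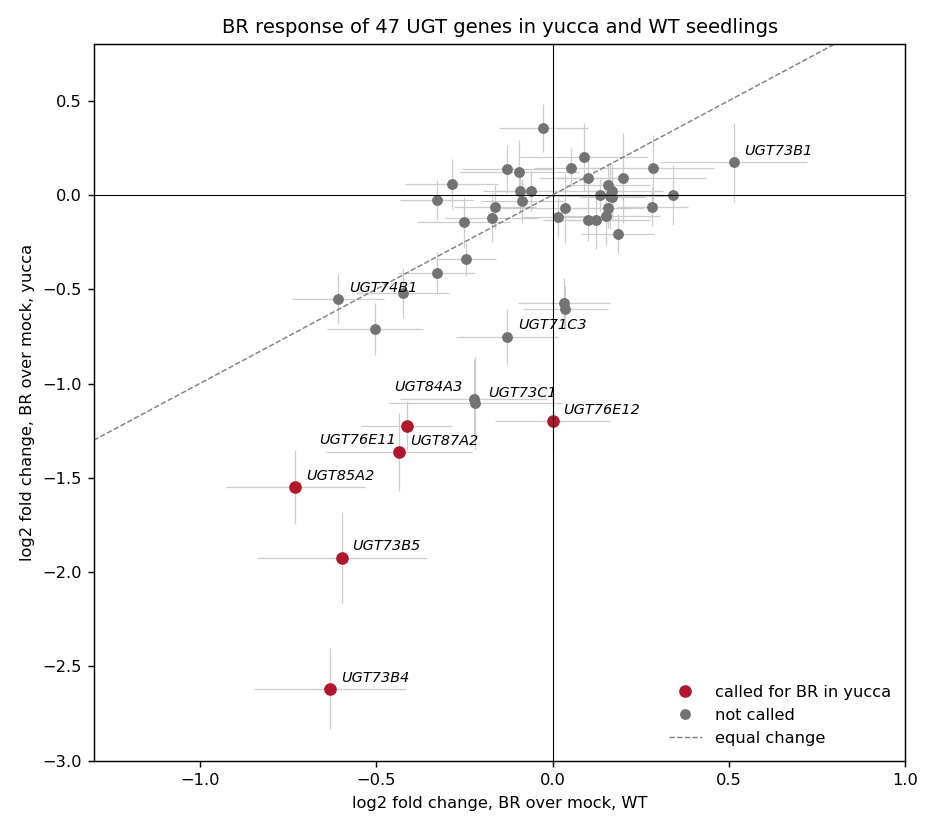
BR response of each of the 47 UGT genes in *yucca* (vertical axis) against that in WT (horizontal axis), as log2 fold changes of BR over mock with standard errors. Red points are called in *yucca*, and the dashed line marks equal change; *UGT73B4* is the lowest point, at -2.62 in *yucca* and -0.63 in WT.

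Whether the response differed between genotypes was tested as an interaction, the BR response in *yucca* minus that in WT. No member was called, beside 0.00879% of all probe sets called higher and 0.0176% called lower. The change was more negative in *yucca* than in WT for 33 of 47 members, and the family median was -0.14 beside 0.01 over all probe sets. Of all probe sets, 52.6% had a positive difference. At an unadjusted p under 0.05 there were 13 members, all more negative in *yucca*, and the share over all probe sets at that limit was not computed. *UGT73B4* had the largest difference, -1.99 (standard error 0.304, limma adjusted p = 0.159, B 1.40). *UGT73B5* followed with -1.32 (standard error 0.340, adjusted p = 0.335) and *UGT76E12* with -1.20 (standard error 0.229, adjusted p = 0.226). The call of *UGT73B4* depended on the fit. It was called with the replicate number as a block (adjusted p = 0.0878, B 1.98), with an intensity trend in the spread (adjusted p = 0.0682) and without *yucca* mock replicate 2 (log2 difference -2.18, adjusted p = 0.0995). Without *yucca* BR replicate 1, 6 members were called, beside 0.563% of all probe sets called lower in that fit, namely *UGT73B4* at -2.36, *UGT73B5* at -1.73, *UGT76E12* at -1.33, *UGT87A2* at -1.26, *UGT84A3* at -1.23 and *UGT76E11* at -0.97.

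Mock-treated *yucca* seedlings were compared with mock-treated WT seedlings to see how the family stood in plants with long-lasting excess auxin. Of 47 members 12 (25.5%) were higher and 5 (10.6%) lower in *yucca*, beside 8.55% of all probe sets called higher and 8.81% called lower. The share called lower is close to that of all probe sets. Without WT mock replicate 1 the share called lower was smaller, both of the members and of all probe sets. The median log2 difference was 0.14 over the members and -0.01 over all probe sets. The split between directions depends on scaling. With array medians set equal, which put the median probe set 0.11 higher in *yucca*, 13 members (27.7%) were higher and 4 (8.51%) lower. Over all probe sets 10.8% were higher and 7.17% lower in that fit. On the values as deposited 3 (6.38%) were higher and 24 (51.1%) lower, beside 1.17% of all probe sets higher and 67.5% lower. *UGT73B5*, *UGT73B4* and *UGT73C1* were called higher on the deposited values too. All 5 lower members were also called lower there. Those values place most probe sets lower in *yucca*, so the lower calls could hardly have come out otherwise.

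The highest differences belonged to the UGT73 family, in which 4 of 7 members were higher in *yucca* and 1 was lower. *UGT73B5* had quantile-normalized intensities of 987 and 950 in *yucca* mock arrays, against 42.1 and 58.2 in WT mock arrays. It was 19.6-fold higher in *yucca*, or 4.29 on the log2 scale (standard error 0.227, limma adjusted p = 3.00e-06), and its deposited values gave 3.33. *UGT73C1* (At2g36750), whose product conjugates the explosive TNT, had 73.2 and 47.8 in *yucca* mock arrays, against 11.3 and 11.6 in WT mock arrays (log2 fold change 2.37). *UGT73B4* had 129 and 105 in *yucca* mock arrays, against 25.7 and 25.2 in WT mock arrays (log2 fold change 2.19). *UGT73B1* (At4g34138) had 213 and 229 in *yucca* mock arrays, against 81.5 and 110 in WT mock arrays (log2 fold change 1.22). Its call was lost when any of 5 arrays was left out (either *yucca* mock array, either WT BR array or WT mock replicate 1), with log2 fold changes of 1.00 to 1.27. Of the list of stress and xenobiotic UGT genes, 3 of 5 were measured, *UGT73B4*, *UGT73B5* and *UGT73C1*, and all 3 were higher in *yucca*. The same does not hold for *GSTU22* and *GSTU25*, glutathione transferases and the 2 measured genes of a list of 20 xenobiotic and oxidative stress genes. *GSTU22* was lower in *yucca* by a log2 fold change of -1.06 and *GSTU25* by -1.46, and both were called.

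The other genes higher in *yucca* came from several families. *UGT87A2* had 701 and 576 in *yucca* mock arrays, against 154 and 142 in WT mock arrays (4.29-fold higher). *UGT84A3* (At4g15490), which makes glucose esters of hydroxycinnamic acids, had 135 and 117 in *yucca* mock arrays, against 30.9 and 30.9 in WT mock arrays (log2 fold change 2.02). *UGT76E12* had 29.7 and 21.7 in *yucca* mock arrays, against 7.22 and 8.73 in WT mock arrays (log2 fold change 1.68). The remaining members called higher were *UGT71B6*, *UGT72B3*, *UGT71C3*, *UGT85A7* and *UGT71C5*, with log2 fold changes of 1.51, 1.36, 1.27, 1.19 and 0.98. In each of the 12 both *yucca* mock arrays lay above both WT mock arrays. The 12 were called on these same arrays, so this adds no support. The share over all probe sets was not computed. Of these 12, 6 were dim probe sets under 32.

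*UGT71C1* (At2g29750), whose product glucosylates hydroxycinnamates and flavonols in vitro, was the member most strongly lower in *yucca*. It had 36.5 and 18.6 in *yucca* mock arrays, against 237 and 190 in WT mock arrays, and was 8.17-fold lower in *yucca* (log2 fold change -3.03, standard error 0.269, limma adjusted p = 3.98e-05). The 2 *yucca* mock arrays of this gene differed more on the log2 scale than those of any other member, yet both lay far under the WT arrays. *UGT72E2* (At5g66690) and *UGT72E3* (At5g26310) glucosylate the lignin precursors coniferyl and sinapyl alcohol. *UGT72E2* had 35.9 and 41.4 in *yucca* mock arrays, against 88.7 and 80.8 in WT mock arrays (log2 fold change -1.13). *UGT72E3* had 14.4 and 17.0 in *yucca* mock arrays, against 35.6 and 25.0 in WT mock arrays (log2 fold change -0.93). The call of *UGT72E3* was lost when any array but WT mock replicate 2 was left out, with log2 fold changes of -1.05 to -0.67. That of *UGT72E2* was lost without WT mock replicate 1 (-1.07, B -0.19). *UGT72E1*, which acts on coniferaldehyde, had a log2 difference of 0.03 and was not called. *UGT78D3* (At5g17030), a flavonol arabinosyltransferase, had 8.49 and 9.07 in *yucca* mock arrays, against 15.99 and 17.4 in WT mock arrays (log2 fold change -0.93). *UGT73D1* had 11.1 and 11.1 in *yucca* mock arrays, against 20.3 and 23.7 in WT mock arrays (log2 fold change -0.98), and lost its call without WT mock replicate 2 (-0.87, B -0.80).

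**Figure D4:**
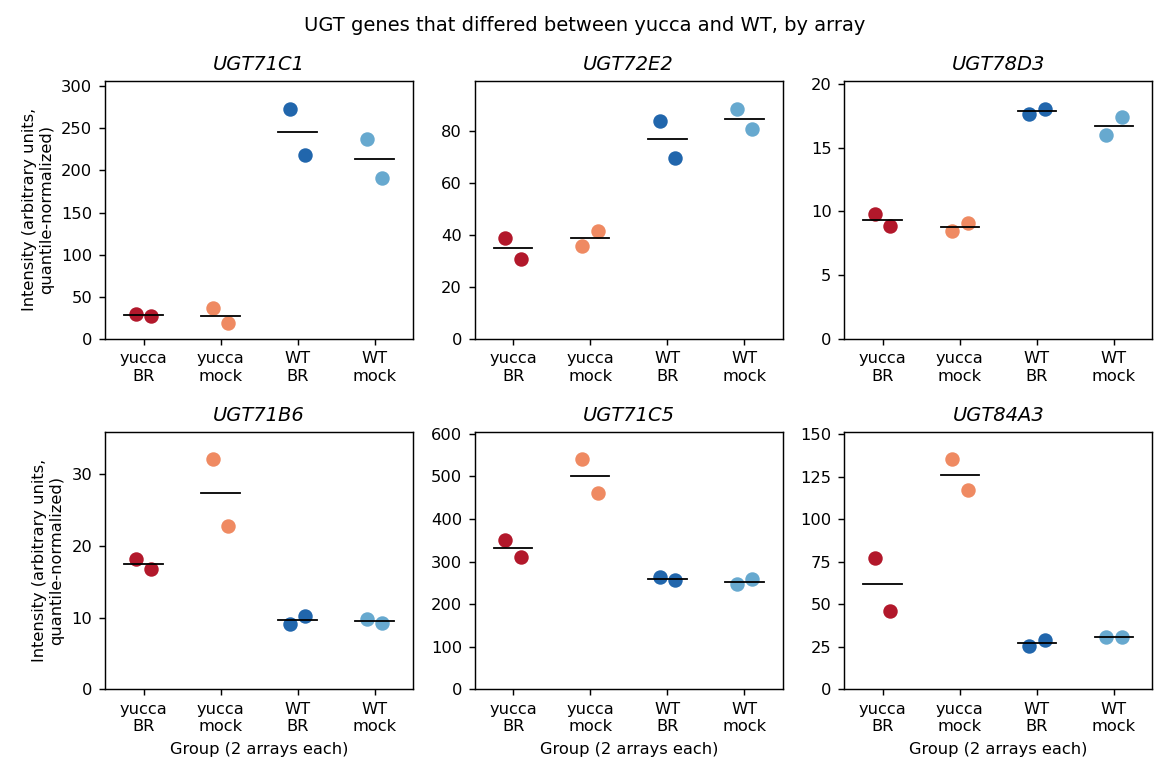
Quantile-normalized intensity (arbitrary units, linear axes from 0) of 6 UGT genes that differed between genotypes, by group; dots are single arrays and bars the mean of 2. *UGT71C1* stays under 40 on all 4 *yucca* arrays and above 190 on all 4 WT arrays, whereas *UGT71C5* and *UGT84A3* are highest on the *yucca* mock arrays.

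Under BR, 7 of 47 members (14.9%) were higher and 5 (10.6%) lower in *yucca* than in WT, beside 8.25% of all probe sets called higher and 8.6% called lower. The share called higher fell close to that of all probe sets when any WT array or *yucca* BR replicate 1 was left out. The share called lower also fell, for members and for all probe sets, when *yucca* BR replicate 2 or either WT BR array was left out. As deposited, 1 (2.13%) was higher and 27 (57.4%) lower, beside 0.897% of all probe sets higher and 67.5% lower. *UGT71C1* was again far lower, with 29.6 and 26.5 in *yucca* BR arrays, against 274 and 219 in WT BR arrays (log2 fold change -3.13). *UGT73B5* was again far higher, with 336 and 198 in *yucca* BR arrays, against 33.2 and 35.3 in WT BR arrays (log2 fold change 2.92). *UGT73B4*, higher in *yucca* under mock treatment, had 23.1 and 12.9 in *yucca* BR arrays, against 16.2 and 18.1 in WT BR arrays. Its groups overlapped under BR, at 0.01 on the log2 scale (standard error 0.230). *UGT85A2* showed a further pattern. It had 178 and 136 in *yucca* BR arrays, against 371 and 345 in WT BR arrays (log2 fold change -1.20), and among the genotype comparisons was called lower only here, while its mock arrays overlapped between genotypes (log2 fold change -0.39).

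Of the 12 members higher in *yucca* under mock treatment, 6 were also called higher under BR, namely *UGT73B5*, *UGT72B3*, *UGT87A2*, *UGT84A3*, *UGT71B6* and *UGT85A7*. All 12 had a smaller log2 difference under BR. They were selected for a high difference under mock treatment, which by itself favours a smaller one under BR. How much of the decrease comes from this selection was not tested. The share over all probe sets called higher was not computed. Of the 5 lower members, 3 were also called lower under BR, *UGT71C1*, *UGT72E2* and *UGT78D3*. Members called under BR alone were *UGT78D2* (0.66, but -0.31 and not called on the deposited values), a flavonoid 3-O-glucosyltransferase, and the lower *UGT85A2* and *UGT73C2* (-0.61). Many of these calls lay close to the limit of B. With any single array left out, *UGT73B5*, *UGT72B3*, *UGT71C1*, *UGT72E2* and *UGT78D3* kept theirs. *UGT71B6* and *UGT78D2* lost it when any WT array or *yucca* BR array was left out (log2 fold changes of 0.77 to 0.93 and 0.62 to 0.70), and *UGT73C2* whichever of the 8 arrays was left out (-0.72 to -0.51). *UGT84A3* lost it when any WT array or *yucca* mock array was left out (1.05 to 1.22), and *UGT87A2* when any WT array or *yucca* BR replicate 1 was (0.86 to 1.29). *UGT85A7* lost it when any BR array of either genotype was left out (0.73 to 0.94), and *UGT85A2* when either WT BR array or *yucca* BR replicate 2 was (-1.25 to -1.01).

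The genes higher in *yucca* and those lowered by BR there can be set side by side, but both comparisons use the *yucca* mock arrays, so a high value in those arrays moves both. Of the 6 genes lowered by BR in *yucca*, 4 were higher in *yucca* under mock treatment. *UGT73B5* had a log2 difference of 4.29 and a BR response of -1.92, *UGT73B4* of 2.19 and -2.62, *UGT87A2* of 2.1 and -1.36, and *UGT76E12* of 1.68 and -1.20. *UGT76E11* (0.68, -1.22) and *UGT85A2* (-0.39, -1.55) were not called for genotype under mock treatment. *UGT73B1* and *UGT85A7*, higher in *yucca*, had BR responses of 0.17 and 0.00 there.

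Of the 12 measured members of the auxin, cytokinin, abscisic acid and salicylic acid lists, 3 (25%) were called higher in *yucca* under mock treatment. That is close to the 25.5% of all 47 members, beside 8.55% of all probe sets. None of the 12 was called lower, beside 8.81% of all probe sets. Under BR 1 of the 12 (8.33%) was called higher, beside 8.25% of all probe sets. None of the 12 was called for BR in either genotype. Of the auxin list, 3 of 6 were found among the members, and none of these 3 was called in any comparison. Only members were searched, so a list gene annotated under another symbol was not counted. *UGT84B1* (At2g23260) and *UGT84B2*, which conjugate indole-3-acetic acid, had quantile-normalized intensities under 13 on all arrays, near the bottom of the range, with log2 differences between *yucca* and WT mock arrays of -0.28 and -0.35. *UGT74D1*, which acts on auxin and its oxidized form, had 327 and 378 in *yucca* mock arrays, against 359 and 336 in WT mock arrays, and the groups overlapped. *IAGLU* (At4g15550), an auxin glucosyltransferase that carries no UGT symbol in the annotation and so is neither a member nor counted in the list, was higher in *yucca*. It had 2273 and 2147 in *yucca* mock arrays, against 741 and 813 in WT mock arrays (log2 fold change 1.51, standard error 0.111, limma adjusted p = 1.50e-05). Its BR responses, -0.29 in *yucca* and -0.56 in WT, were not called. Both enzymes of the BR list, *UGT73C5* and *UGT73C6*, were not analysed here.

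Of the cytokinin list, *UGT76C1* and *UGT76C2*, which glucosylate cytokinins at nitrogen atoms, were measured and not called. *UGT76C1* had 116 and 132 in *yucca* mock arrays, against 90.5 and 98.9 in WT mock arrays (log2 difference 0.39, adjusted p = 0.0122, B -2.65), so the groups did not overlap. Of the abscisic acid list, 3 of 5 were measured and 2 were higher in *yucca* under mock treatment. *UGT71B6* (At3g21780) had 32.1 and 22.7 in *yucca* mock arrays, against 9.76 and 9.24 in WT mock arrays. *UGT71C5* (At1g07240) had 540 and 461 in *yucca* mock arrays, against 247 and 258 in WT mock arrays, and 351 and 311 in *yucca* BR arrays, against 263 and 257 in WT BR arrays. The third, *UGT71B8*, had a log2 difference of -0.31 under mock treatment and was not called. On the deposited values neither *UGT71B6* (0.74) nor *UGT71C5* (0.02) was called.

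Of the list of salicylic acid and defence signals, 4 of 6 were measured. *UGT71C3* (At1g07260), which glucosylates methyl salicylate, had 75.2 and 58.7 in *yucca* mock arrays, against 26.8 and 28.4 in WT mock arrays, and was called higher under mock treatment alone. *UGT76B1*, which conjugates isoleucic acid and salicylic acid, had 174 and 136 in *yucca* mock arrays, against 245 and 237 in WT mock arrays (log2 difference -0.65, adjusted p = 0.00939, B -2.29), and was not called. *UGT74F1* and *UGT76D1* had log2 differences of 0.14 and 0.05. Of the flavonoid list, 3 of 8 were measured, all in the UGT78 family. *UGT78D1*, a flavonol rhamnosyltransferase, changed by -0.71 after BR in *yucca* and by -0.50 in WT, neither of which was called. *UGT80B1*, a sterol glucosyltransferase, was called in no comparison.

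Few of the listed genes that supply or surround these reactions were found by name, and those not found may still be on the array. Of 24 phenylpropanoid and flavonoid synthesis genes, *CHI*, *DFR* and *HCT* were measured, and the only call was *DFR*, higher in *yucca* under BR (log2 fold change 1.14). Of 25 genes of UDP-sugar supply, *USP* alone was measured, and it was lower in *yucca* under mock treatment (-0.67) and under BR (-0.61).

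Many UGT genes lie beside close relatives in tandem arrays. By the order of genes in the RefSeq annotation of assembly TAIR10.1, 31 members formed 13 clusters in which no more than 3 protein-coding genes separated members of the same numbered family. Under mock treatment only the pair *UGT73B5* and *UGT73B4* had all its members called, 9 clusters had some and 3 had none. Neighbours could differ widely. *UGT71C1* had a log2 difference of -3.03, and *UGT71C2*, the next gene, one of 0.24, with 145 and 106 in *yucca* mock arrays, against 102 and 107 in WT mock arrays. *UGT73C1* had a difference of 2.37 beside -0.24 for *UGT73C2*, and *UGT84A3*, at 2.02, lay between *UGT84A1* (0.20) and *UGT84A4* (-0.09). *UGT71C5* and *UGT71C3* were both higher in *yucca*, whereas *UGT71C4*, between them, had 242 and 249 in *yucca* mock arrays, against 255 and 262 in WT mock arrays. In the UGT78 pair, *UGT78D3* was lower (-0.93) and *UGT78D2* had a positive difference (0.54) that was not called. For BR in *yucca*, all members were called in 2 clusters, *UGT73B5* with *UGT73B4* and *UGT76E12* with *UGT76E11*, and 1 of 4 in the cluster of *UGT85A2*. Close relatives can share probe sequence. Cross-hybridization between them was not tested.

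**Figure D5:**
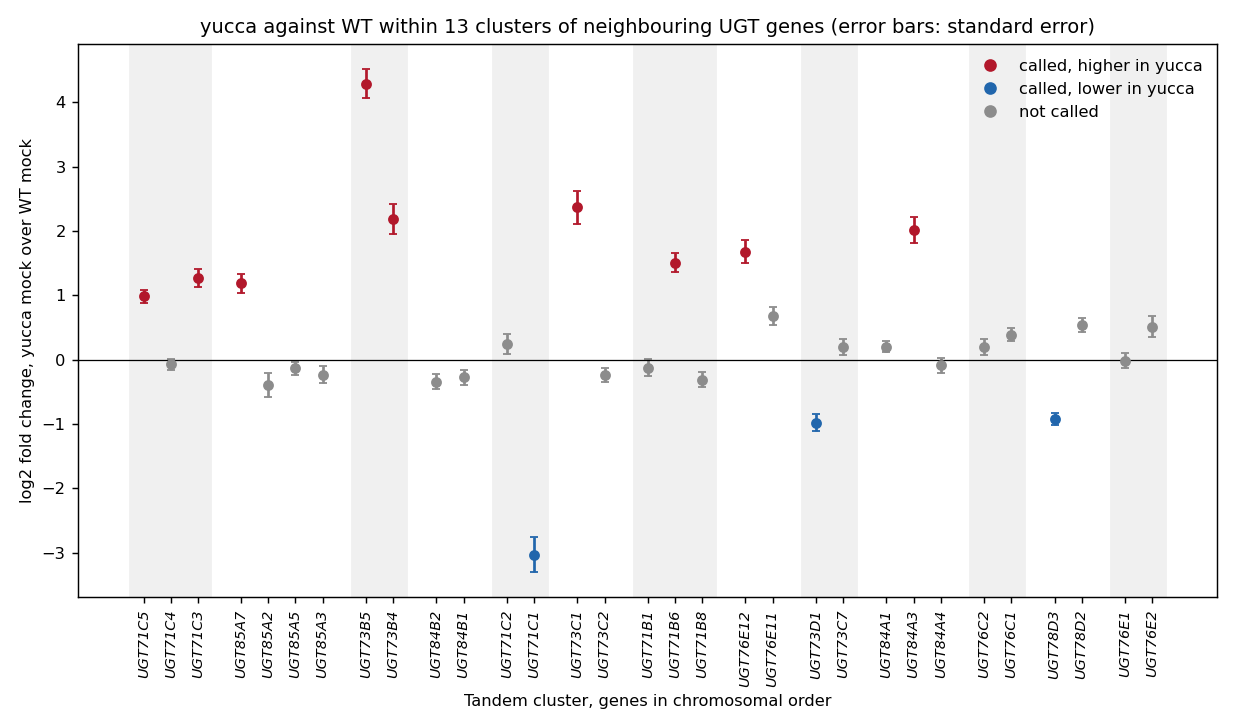
Log2 fold change of *yucca* mock over WT mock (points, with standard errors) for the 31 members in 13 tandem clusters, in gene order, with shading to separate clusters. Red and blue points are called higher and lower in *yucca* and grey points are not called; *UGT71C1*, at -3.03, stands beside *UGT71C2*, at 0.24.

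The most abundant member was *UGT88A1*, with a geometric mean of 914 over the deposited arrays. It had quantile-normalized intensities of 964 and 1022 in *yucca* mock arrays, against 1043 and 1027 in WT mock arrays. After BR its deposited values were 555 and 575 in *yucca* BR arrays, against 697 and 734 in *yucca* mock arrays, and 1214 and 1202 in WT BR arrays, against 1453 and 1412 in WT mock arrays. The groups did not overlap in either genotype, but the log2 changes of -0.34 and -0.25 were not called.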

How the data were processed

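RNA of 8 *Arabidopsis* seedling samples was hybridized to ATH1 arrays. The deposited intensities are the authors' rma values, background-corrected, quantile-normalized and summarized for 22810 probe sets, on a linear scale. Equal values recur between arrays of the same genotype and hardly across genotypes, so the genotypes were taken as normalized apart. Here 64 control probe sets were left out after normalization. A limma model (version 3.58.1, R 4.3.3) with 4 group means over all arrays and moderated spreads was fitted to log2 values of the remaining 22746, and B assumed that a share of 0.01 had changed. BR effects and the interaction used deposited values, and genotype comparisons used quantile-normalized values. Genes were named from the platform annotation and placed by RefSeq (TAIR10.1). Named are the called members with the largest changes, *UGT71C1*, *UGT73B4* and the hormone and glucosinolate enzymes. *UGT88A1* and members given as neighbours, or named for an uncalled change, were chosen after their values were seen. Members and lists were chosen with earlier results of these data known. Fits were tested on simulated data. Alternatives covered scaling, thresholds, low values, a replicate block and each array left out. Sequences were not used here.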

Additional observations from a re-analysis of the deposited data

How the results depend on the processing

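Counts of called members moved with the choices that follow, and the cause was not tested beyond what each choice does by construction. Without the B criterion, members called lower by BR were 16 (34.0%, beside 4.64% of all probe sets) in *yucca* and 1 (2.13%, beside 2.01%) in WT. For *yucca* against WT there were 19 higher (40.4%, beside 25.8%) and 10 lower (21.3%, beside 27.7%) under mock treatment, and 17 higher (36.2%, beside 26.0%) and 14 lower (29.8%, beside 27.3%) under BR. In fits of only the groups compared, 3 members (6.38%, beside 1.31% of all probe sets) were called lower by BR in WT. With 16 added to each intensity, 3 (6.38%, beside 8.63% of all probe sets) were lower under mock treatment. Under BR 3 were higher (6.38%, beside 7.38%) and 3 lower (6.38%, beside 8.29%). With probe sets under 32 left out, which removes 20 members, 6 were higher (22.2%, beside 10.2%) and 2 lower (7.41%, beside 10.2%) under mock treatment. Under BR 3 were higher (11.1%, beside 9.63%) and 3 lower (11.1%, beside 9.60%). On values as deposited there were 3 higher and 24 lower under mock treatment, and 1 higher and 27 lower under BR. On those values 16 members changed sign under mock treatment and 18 under BR, all to negative. Among them were *UGT76E11* (-0.28) and *UGT78D2* (-0.42) under mock treatment, and *UGT73B1* (-0.10) and *UGT78D2* (-0.31) under BR. An intensity trend in the spread gave 1 interaction call, *UGT73B4*.

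With each array left out in turn, members called lower by BR ranged from 5 to 12 in *yucca* and from 0 to 1 in WT. Under mock treatment 11 to 13 were higher and 3 to 4 lower in *yucca*, and under BR 2 to 7 were higher and 3 to 6 lower. Interaction calls ranged from 0 to 6.

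Replicate numbers were shared between groups, but nothing in the labels says that they pair the samples. Replicate differences correlated at 0.41 between *yucca* BR and *yucca* mock arrays and at 0.23 between WT BR and WT mock arrays, and between -0.12 and -0.07 across genotypes. With the replicate block 6 members (12.8%, beside 1.66% of all probe sets) were called lower for BR in *yucca*, and none for BR in WT. Under mock treatment 12 (25.5%, beside 8.39%) were higher and 5 (10.6%, beside 8.66%) lower in *yucca*. Under BR 7 (14.9%, beside 8.30%) were higher and 5 (10.6%, beside 8.50%) lower. For the interaction 1 member (2.13%, beside 0.0703%) was called, *UGT73B4* (limma adjusted p = 0.0878). A crossed pairing of *yucca* and WT numbers, chosen after seeing the data, gave 8 higher and 6 lower under BR. These were 17.0% and 12.8% of members, beside 8.90% and 9.25% of all probe sets. The planned change to the dimmer probe set of a gene was not run, since each member has a single probe set.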
